A study of Mus musculus with 2 samples.

Results

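Xdh-high mid-villus enterocytes are absorptive cells of the small intestine picked here by RNA for 4 genes: Xdh, Mme, Slc5a12 and Tmprss15. A barcode was a member where these genes summed to at least 4 UMIs (unique molecular identifiers, the tags that count single RNA molecules) and to at least 0.4% of its nuclear-encoded UMIs. Members also had to stay below 5 UMIs of the villus tip genes Nt5e, Ada, Slc28a2 and Clca4a. The limit was 6 UMIs for the ileal genes Slc10a2, Plb1, Cubn, Grin2a, Slc34a2 and Fam151a, and 5 UMIs for Papss2, Slc5a11, Slc5a4b, Aldh1a1 and Reg1, which are called lower villus genes here. Of 8690 kept barcodes, 776 were members (8.93%, 95% exact binomial interval 8.34 to 9.55%). The rule reads the RNA, so RNA differences of these genes describe the choice and support nothing, and other RNA values are descriptions of the cells so chosen.

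All cells came from the small intestine of 1 mouse, 55 weeks old, whose mitochondrial DNA (mtDNA) carried a mutation in TrnA, the gene for the mitochondrial alanine tRNA, at a load of 73%. RNA and open chromatin (ATAC) were read from the same sorted epithelial cells, so the 2 libraries share their barcodes and neither is a replicate of the other. The series concerns this mutation and acute colitis, but whether this animal had colitis, and its strain and sex, are not stated. No control animal was analysed here. Every group below carries the mutation, no comparison measures its effect, and with 1 animal there are no replicates and no p-values. Intervals are 95% exact intervals and cover counting error only.

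Enterocytes arise in the crypts, move up the villus and are shed at its tip, and their genes change on the way and along the length of the gut. Xdh encodes xanthine dehydrogenase, which takes the purines hypoxanthine and xanthine to urate. Mme encodes neprilysin, a peptidase of the cell surface, and Slc5a12 encodes a sodium-coupled carrier of lactate and related acids. Tmprss15 encodes enteropeptidase, the brush border protease that activates trypsinogen and is known from the duodenum. Cyp3a25 is a cytochrome P450 of drug and steroid metabolism that was proposed as a marker of these cells but was not used by the rule.

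The members were set beside 3 other enterocyte groups of the same mouse, chosen by the opposing sums and each at 0.4% or more of nuclear-encoded UMIs. There were 643 tip-type, 248 ileal-type and 55 lower-type barcodes. Goblet-type (1250) and crypt-type (338) barcodes served to show the level of RNA in cells that should lack these genes. Members had a median of 937 nuclear-encoded UMIs, close to 929 in tip-type barcodes and below 1718.5 in ileal-type, 2284 in lower-type, 1908 in goblet-type and 2864 in crypt-type barcodes. The median share of UMIs encoded by mtDNA was 82.6% in members, against 78.1%, 66.2% and 62.8% in the tip-, ileal- and lower-type groups. The part of this share, and of depth, in the results below was not tested beyond the values given.

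Because mtDNA-encoded RNA took so much of each cell, RNA levels are given per 1000000 nuclear-encoded UMIs, summed over a group. Xdh stood at 3039 in members (2924 to 3158), 1125 in tip-type, 1192 in ileal-type, 1274 in lower-type, 296 in goblet-type and 98.2 in crypt-type barcodes. Mme stood at 2091 in members, 269 in tip-type, 814 in ileal-type, 1441 in lower-type, 153 in goblet-type and 64.5 in crypt-type barcodes. Both genes were thus above the goblet-type level in the ileal-, lower- and tip-type enterocytes too. Slc5a12 stood at 1883 in members, 883 in ileal-type, 524 in lower-type and 134 in tip-type barcodes, with 88.4 in goblet-type and 20.6 in crypt-type barcodes. Tmprss15 stood at 951 in members, 446 in lower-type, 257 in tip-type and 28.2 in ileal-type barcodes (15.4 to 47.2), with 35.6 in goblet-type and 8.41 in crypt-type barcodes. Its ileal-type level was therefore at that of goblet-type barcodes. The order for Cyp3a25 was 800 in members (741 to 862), 738 in lower-type (614 to 880), 581 in ileal-type (516 to 652), 95.8 in goblet-type, 85.2 in tip-type and 23.4 in crypt-type barcodes. Members and lower-type barcodes did not differ in Cyp3a25 beyond their intervals, and tip-type barcodes were at the goblet-type level.

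**Figure D1:**
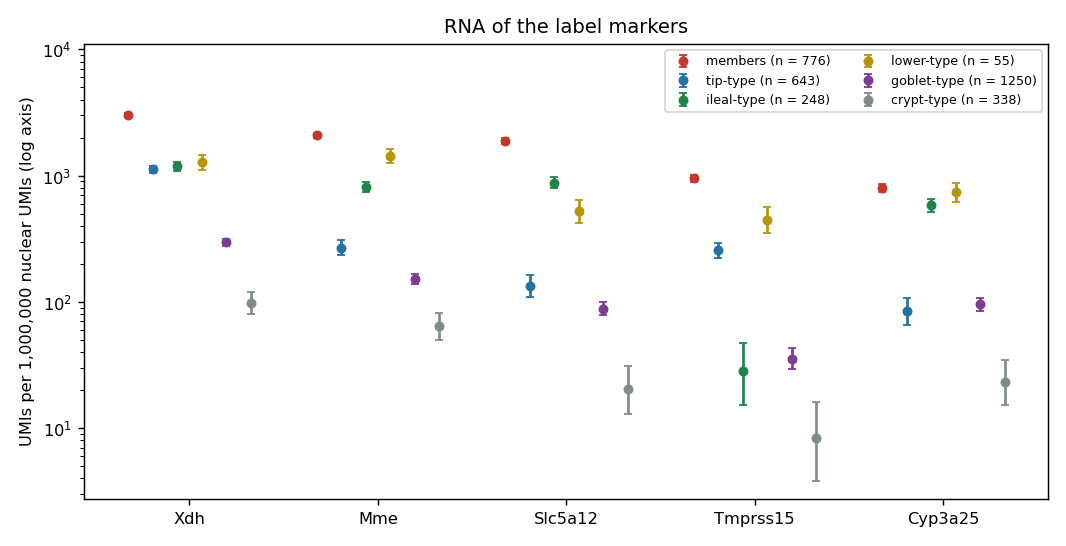
UMIs per 1000000 nuclear-encoded UMIs (log axis) of the 5 marker genes, summed over each group of barcodes, with 95% exact Poisson intervals. Members are highest for the 4 genes that chose them, while for Cyp3a25 the intervals of members (800) and lower-type barcodes (738) overlap.

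Shares of cells with a UMI depend on depth, so each barcode was thinned to 500 nuclear-encoded UMIs, which left out 52 of 776 members. Xdh was then seen in 80.2% of members (96.0% unthinned), against 11.4% of goblet-type and 4.14% of crypt-type barcodes. The other enterocyte groups held it often too, in 41.8% of tip-type, 47.2% of ileal-type and 44.4% of lower-type barcodes. Cyp3a25 was seen in 29.6% of members (46.6% unthinned), 37.04% of lower-type, 21.8% of ileal-type, 4.06% of tip-type, 3.35% of goblet-type and 2.66% of crypt-type barcodes. The share in members lay well above the level of goblet-type and crypt-type barcodes, where free RNA in droplets can leave such UMIs.

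Within the members the 4 chosen genes were not equally common. Xdh was found in 745 members (96.0%), Mme in 607 (78.2%), Slc5a12 in 554 (71.4%) and Tmprss15 in 275 (35.4%). All 4 were seen in 146 members, 3 in 363, 2 in 241 and 1 in 26. Xdh alone had the most UMIs of the 4 in 303 members, Mme in 142, Slc5a12 in 132 and Tmprss15 in 56, with ties in 143. The summed UMIs ran from 4 to 42 with a median of 7, or 0.758% of nuclear-encoded UMIs. At the edge of the rule, 139 members had a sum of exactly 4 (median 665 nuclear-encoded UMIs), and 139 other barcodes missed only by a sum of 3 (median 544). By share, 96 members lay between 0.4 and 0.5%, and 93 barcodes within the other limits lay between 0.3 and 0.4%. The upper limits removed 234 barcodes with high sums of the 4 genes, of which 114 exceeded the ileal limit, 86 the tip limit and 61 the lower limit. The members are therefore a range cut from a continuum of counts.

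The enterocyte label was checked on 15 general enterocyte markers such as Alpi, Apob and Vil1, all found in members. They summed to 26183 in members, 20999 in tip-type, 35016 in ileal-type and 28885 in lower-type barcodes, against 6605 in goblet-type and 2359 in crypt-type barcodes. Each list of markers of another cell type summed to less than the enterocyte markers in members, but goblet and Paneth RNA was not low. All 10 goblet markers were found in members and summed to 9957, against 14147, 6324 and 5792 in tip-, ileal- and lower-type barcodes. They stood at 80104 in goblet-type and 3351 in crypt-type barcodes. All 9 Paneth markers were found too, at 6738 in members, 8427 in tip-type, 4146 in ileal-type and 2137 in lower-type barcodes. Their sum was 7549 in goblet-type and 3235 in crypt-type barcodes, and the source of this RNA in members was not tested. Crypt stem markers summed to 907 in members and 5936 in crypt-type barcodes, and cycling markers to 305 and 4631. Of 10 T cell markers 7 were at 0 in members, including Cd3e, Cd3g, Cd8a and Ptprc, and of 10 stromal and endothelial markers 8 were at 0, including Col1a1 and Pdgfra. In tip-, ileal- and lower-type barcodes 2, 7 and 10 of the T cell markers and 7, 9 and 9 of the stromal and endothelial markers were at 0. These zeros therefore do not set members apart from the ileal- and lower-type groups. Enteroendocrine markers summed to 284 with Insm1 and Pax6 at 0, and tuft markers to 42.1 with Alox5, Gfi1b and Il25 at 0.

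The mid-villus label was checked on landmark genes that the rule did not use. Tip landmarks, such as Krt20, Egfr and Apoa4, summed to 6786 in members, between 13257 in tip-type and 5365 and 4167 in ileal- and lower-type barcodes. Base landmarks, such as the antimicrobial genes Reg3b and Reg3g, summed to 3926 in members and 3917 in tip-type barcodes, below 7541 in ileal-type and 7745 in lower-type barcodes. Genes of the proximal gut, such as Lct, Adh1 and Gata4, summed to 3440 in members, 5620 in lower-type, 2160 in ileal-type and 1822 in tip-type barcodes. Genes of the distal gut, such as Fabp6 and Nr1h4, summed to 5475 in members and 12932 in ileal-type barcodes. Members thus lay between tip-type and lower-type barcodes on the tip landmarks but at the tip-type level on the base landmarks. With the rule gene Reg1 included, base landmarks summed to 3988 in members, 4425 in goblet-type and 4020 in crypt-type barcodes. Members were thus not above these non-enterocyte groups on that list, and it does not place them on the villus. On both lists of gut segments members lay between lower-type and ileal-type barcodes. The lists are small and 1 abundant gene can set a sum, so some list members are named in the comparisons. By gene, under the 1.5-fold rule given below, 3 of 11 base landmarks were higher and 3 lower than in ileal-type barcodes (median log2 0.05). Against tip-type barcodes 2 of 11 were higher and 0 lower (median -0.01). Of 13 tip landmarks 4 were higher and 1 lower than in ileal-type barcodes (median 0.29). Over all genes, 10.4% were higher and 6.86% lower against ileal-type and 17.7% and 10.5% against tip-type barcodes.

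**Figure D2:**
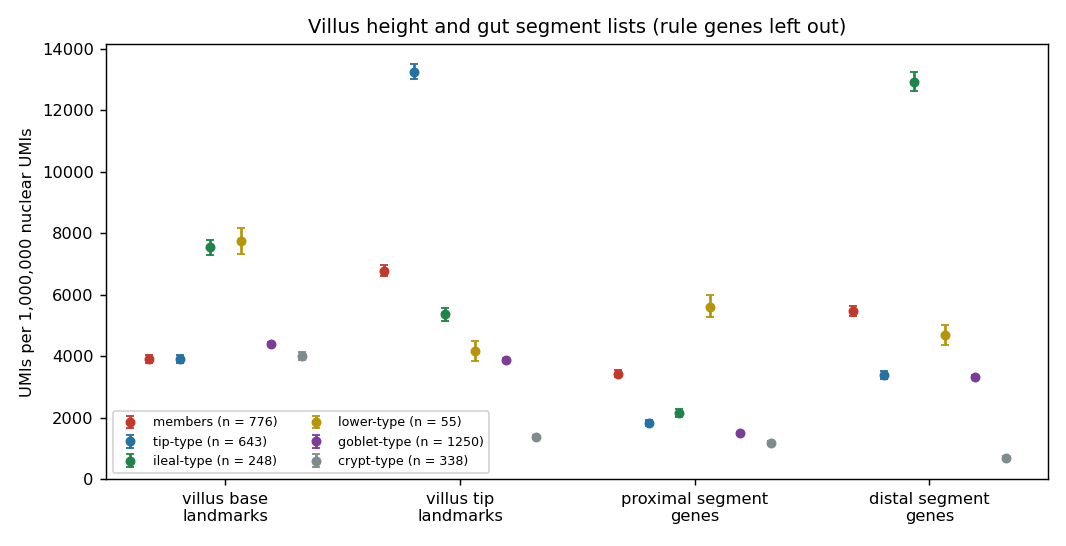
Summed UMIs per 1000000 nuclear-encoded UMIs of 4 lists of landmark genes, without the genes of the rule, in each group, with 95% exact Poisson intervals. Members (red) lie between tip-type and lower-type barcodes for the tip landmarks (6786) and below lower-type barcodes for the proximal genes (3440 against 5620).

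The comparison with tip-type barcodes asks what separates these cells from enterocytes at the end of the villus. Members held more RNA for the digestion and uptake of sugars and peptides and for drug metabolism, and less for tip landmarks and stress RNAs. A gene was called where its level differed by at least 1.5-fold with an interval that excluded no difference, among genes with at least 20 UMIs over both groups. Of 7973 genes tested, 1411 were called higher (17.7%) and 834 lower (10.5%) in members, together 28.2%, and the median log2 ratio of all genes was 0.13. Per UMI of all kinds, mtDNA-encoded included, every log2 ratio moves by -0.35, and 681 genes were then higher and 1663 lower. Named genes and lists are therefore read beside the median gene, and positive ratios smaller than this shift change sign on that scale, as the median of the lipid list does.

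Sugar genes stood out against tip-type barcodes, with 15 of 16 tested higher and 0 lower (median log2 2.25). Sis, the sucrase-isomaltase of the brush border, was 6.59-fold higher with 6196 UMIs in members and 877 in tip-type barcodes. Slc2a2, the basolateral glucose and fructose transporter GLUT2, differed by a log2 of 2.91, and Slc2a5, the fructose transporter GLUT5, by 2.85. Lct, the lactase gene, differed by 2.34. The largest ratios among all called genes with at least 50 UMIs were those of Slc5a4a, a sodium-glucose cotransporter family member (17.5-fold, 75 against 4 UMIs), and Slc2a7, a hexose transporter (17.1-fold, 128 against 7 UMIs). Next came Bco2, which cleaves carotenoids (11.9-fold), the vitamin C transporter Slc23a1 (11.2-fold), Sco2, which delivers copper to cytochrome c oxidase (11.1-fold), the predicted genes Gm7652 (10.8-fold) and Gm21049 (10.6-fold), and G6pc, the glucose-6-phosphatase gene (10.5-fold). Each of these 6 had 5 to 7 UMIs in tip-type barcodes. Slc5a4a has a close copy in Slc5a4b, a gene of the rule, and how reads shared by copies were counted is not given in the sources used here.

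Of 15 brush border peptidase and peptide uptake genes outside the rule, 11 were higher and 1 lower than in tip-type barcodes (median log2 1.05). Ace, the angiotensin-converting enzyme, differed by 2.23, the dipeptidyl peptidase gene Dpp4 by 1.93 and the aminopeptidase Anpep by 1.47. Naaladl1 was the 1 lower gene, at -0.75. Among 29 cytochrome P450, esterase and conjugation genes 20 were higher and 1 lower (median 1.20), led by Cyp2c66 (3.34), Cyp3a25 (3.23) and the bile acid gene Cyp27a1 (3.02), while the carboxylesterase Ces2a was lower (-0.82). Amino acid transporters had 9 of 16 higher and 2 lower (median 0.67), with Slc7a15 at 2.74 and Slc6a20b at 2.68, and Slc1a5 (-2.58) and Slc25a22 (-1.26) lower. Vitamin, metal and ion transporters had 11 of 22 higher and 1 lower, the sodium-proton exchanger Slc9a2 (-1.18). Among the higher were the apical exchanger Slc9a3 (1.68) and the folate carrier Slc19a1 (2.15).

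Lipid genes went both ways against tip-type barcodes, with 11 of 28 higher and 6 lower (median 0.27). The fatty acid receptor Cd36 was higher by a log2 of 2.61, the sterol exporters Abcg5 and Abcg8 by 1.61 and 1.36. The apolipoprotein genes Apoa4 (-1.13), Apoa1 (-0.94), Apob (-0.92) and Apoc3 (-0.73), which coat chylomicrons, were lower. Among purine genes outside the rule 3 of 12 were higher and 3 lower (median -0.37). Gda, the guanine deaminase that makes xanthine, was higher by 1.90 with 2477 UMIs in members, as were the urate transporter Slc2a9 (2.00) and the pyrimidine-preferring nucleoside transporter Slc28a1 (2.34). The nucleotidase Nt5c2 (-1.94), Slc17a4 (-1.05) and the purine nucleoside phosphorylase Pnp (-0.62) were lower. The rule genes Nt5e, Slc28a2 and Ada were at -6.10, -6.04 and -3.62, which the limits set.

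Transcription factor genes of enterocytes had 21 of 44 higher and 7 lower than in tip-type barcodes (median 0.51). Ppargc1a, a coactivator for mitochondrial genes, was higher by 2.42 (481 against 84 UMIs), the xenobiotic receptors Nr1i3 and Nr1i2 by 2.00 and 1.47 and Hnf4g by 1.32. Hnf4a went the other way (-0.82), as did Klf4 (-0.89) and Prdm1 (-3.16). Tip landmarks outside the rule had 7 of 13 lower and 1 higher (median -0.82), with Egfr, the epidermal growth factor receptor, at -3.68 and Krt20 at -0.82. Of 10 nuclear-retained and stress RNAs 7 were lower and 0 higher (median -0.99), among them Atf3 (-3.38), Jun (-1.83), Fos (-1.13), Neat1 (-0.94) and Malat1 (-0.85). The lowest ratios with at least 50 UMIs were those of Gm47507, a predicted gene with 1 UMI in members and 178 in tip-type barcodes (log2 -7.58, -12.9 to -5.08), the receptor Gprc5a with 2 and 180 (-6.59, -9.65 to -4.72) and Stxbp5l with 1 and 62 (-6.05, -11.4 to -3.52). The sialyltransferase St3gal1 was 35.5-fold lower and the ubiquitin ligase Marchf3 35.0-fold lower.

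The comparison with ileal-type barcodes sets the members beside enterocytes of the distal gut. Members had more RNA of proximal genes and less of distal genes and peptidases. Of 7352 genes tested, 763 were called higher (10.4%) and 504 lower (6.86%), together 17.2%, with a median log2 of 0.10. Per UMI of all kinds the log2 ratios move by -0.79, and 70 were higher and 3308 lower. Positive ratios smaller than that shift change sign on that scale, among them the medians of the sugar, proximal and drug metabolism lists and the ratio of Cyp3a25. Proximal genes outside the rule had 6 of 11 higher and 0 lower (median 0.65), and distal genes 0 of 13 higher and 10 lower (median -1.70). Onecut2, a transcription factor gene, had the highest ratio of all (12.0-fold, 310 against 15 UMIs). Adh1, the alcohol dehydrogenase, followed among proximal genes at a log2 of 2.34, then Tm4sf4 at 2.20 and Lct at 0.65. The other genes with the highest ratios were Prdm16 (7.60-fold), Nav2 (7.21-fold), Pid1 (7.12-fold), the deacetylase gene Aadac (6.59-fold), Gm8979 (5.90-fold), Foxn2 (5.47-fold) and Fam13a (5.46-fold). Prdm16 and Foxn2 encode transcription factors. After thinning, Onecut2 was seen in 12.3% of members, 10.8% of tip-type and 2.42% of ileal-type barcodes. The shares were 14.7% in goblet-type, 18.9% in crypt-type and 25.9% in lower-type barcodes. Members thus did not have the highest share of Onecut2, and its high ratio here goes with a low ileal-type share.

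The distal genes that were lower included those of bile acid handling. Fgf15, the ileal hormone that reports bile acids to the liver, had 0 UMIs in members and 58 in ileal-type barcodes. With 3 UMIs set in place of 0 it was 33.2-fold lower, and its interval ended at a log2 of -4.71. Fabp6, which binds bile acids in the cell, was 9.20-fold lower (279 against 1493 UMIs), and Slc51a and Slc51b, the basolateral bile acid exporter, were at a log2 of -2.57 and -1.89. The bile acid receptor Nr1h4 was at -1.90. Trpm6, a magnesium channel, had 2 UMIs against 72 (log2 -5.95, -9.03 to -4.05), Saa1, an acute phase gene, was 32.7-fold lower, Nos2, the inducible nitric oxide synthase, 11.1-fold and Tmem117 8.17-fold. Of 15 peptidase and peptide uptake genes outside the rule 9 were lower and 0 higher (median -0.80), including Naaladl1 (-2.43), Mep1a (-2.33), Xpnpep2 (-2.30) and Dpep1 (-1.74). The same list was mostly higher against tip-type barcodes, so its place depends on the group beside it.

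Sugar genes had 8 of 16 higher than in ileal-type barcodes and 0 lower (median 0.65), among them Slc2a7 (1.69), Pck1 (1.25) and Slc5a4a (0.99). Cytochrome P450, esterase and conjugation genes had 11 of 29 higher and 4 lower (median 0.46), with Ugt2b5 at 2.80 on 24 against 2 UMIs and Cyp2c66 at 1.97. Lipid genes had 6 of 28 higher and 3 lower: Cd36 (1.86), Cidec (1.498) and Apoa4 (1.33) were among the higher, and Fabp2 (-1.55), Apoa1 (-0.93) and Abca1 (-0.71) were the lower. Vitamin, metal and ion transporters had 4 of 22 higher and 7 lower, with the sulfate transporter Slc13a1 at -2.30 and the riboflavin transporter Slc52a3 at -2.21. Among monocarboxylate genes Slc5a8, the relative of Slc5a12 with higher affinity, was lower (-2.66, 54 against 199 UMIs), and Slc16a6 was higher (1.95). Slc5a8 was also lower than in tip-type barcodes (-2.10), while Slc16a10 was higher there (2.58). Amino acid transporters had 4 of 15 higher and 2 lower, and the glutamate transporter Slc1a1 was lowest (-2.63).

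The comparison with lower-type barcodes rests on 55 barcodes and on 167979 nuclear-encoded UMIs, so it has the widest intervals. Members had lower levels of 6 of 11 base landmarks, and higher levels of 5 of 13 tip landmarks and of 6 of 15 peptidase and peptide uptake genes. Of 6725 genes tested, 542 were called higher (8.06%) and 603 lower (8.97%), together 17.0%, with a median log2 of 0.03. Per UMI of all kinds the ratios move by -0.88, and 42 were higher and 2807 lower. Ratios above 0 but smaller than that shift change sign there too, among them the medians of the tip landmarks and the peptidase list and the ratios of Mme and Cyp3a25. Base landmarks outside the rule had 6 of 11 lower and 0 higher (median -1.10): Reg3a (-3.25), Il18 (-2.42), Nlrp6 (-1.58), Reg3b (-1.53), Reg3g (-1.22) and Lypd8 (-1.10). Tip landmarks had 5 of 13 higher and 1 lower (median 0.68), with Klf4 at 1.38 and Krt20 at 1.06, and Fos lower at -1.01. Proximal genes had 3 of 11 higher and 7 lower (median -1.06). Adh1 (-1.64), Fabp1 (-1.58) and Onecut2 (-1.06) were among the lower, and Tm4sf4 (1.48), the cholesterol transporter Npc1l1 (1.13) and Lct (0.71) were the higher.

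Of 30 cytochrome P450, esterase and conjugation genes 3 were higher and 9 lower in this comparison (median -0.15). Gsta1 (-3.04), Gstm3 (-2.99) and Gsta4 (-2.59), all glutathione transferases, were among the lower, and Cyp3a11 (1.28) was the highest. Of 6 retinoid and carotenoid genes outside the rule 3 were lower and 0 higher: Bco2 (-1.52), Rdh7 (-1.48) and Rbp2 (-1.23). Vitamin, metal and ion transporters had 9 of 20 lower and 2 higher, with Slc13a1 at -2.58 and the vitamin C transporter Slc23a2 at -2.21. Peptidase and peptide uptake genes had 6 of 15 higher and 1 lower, led by Lap3 (1.71) and Slc15a1 (1.63), the di- and tripeptide carrier PEPT1, and Enpep was lower (-0.84). The neutral amino acid carrier Slc6a19 was higher (1.62). Transcription factor genes had 12 of 44 lower and 3 higher, with Nr5a2 (-2.24) lowest and Klf4 highest.

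The highest ratios against lower-type barcodes rest on few UMIs there. Slc23a4, a nucleobase transporter of rodents, had 103 UMIs in members and 1 in lower-type barcodes (log2 4.34, 1.83 to 9.66). Lama3 had 238 and 3 (3.96, 2.40 to 6.25), and Mtmr11, Tmem140, the colipase gene Clps, H2-Q4 and Snrpd2 had 63 to 73 UMIs against 1. Ang4, a Paneth antimicrobial gene, had 126 and 2 UMIs (3.63, 1.75 to 6.69). The Paneth list to which it belongs stood at 6738 in members and 2137 in lower-type barcodes, and the part of Paneth RNA in this ratio was not tested. The lowest ratios were those of the monoamine oxidase Maob (8.42-fold lower), Gstm3 (7.97-fold), 2210407C18Rik (6.22-fold), Slc13a1 (5.98-fold), Plekhg1 (5.79-fold) and Il18 (5.35-fold).

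**Figure D3:**
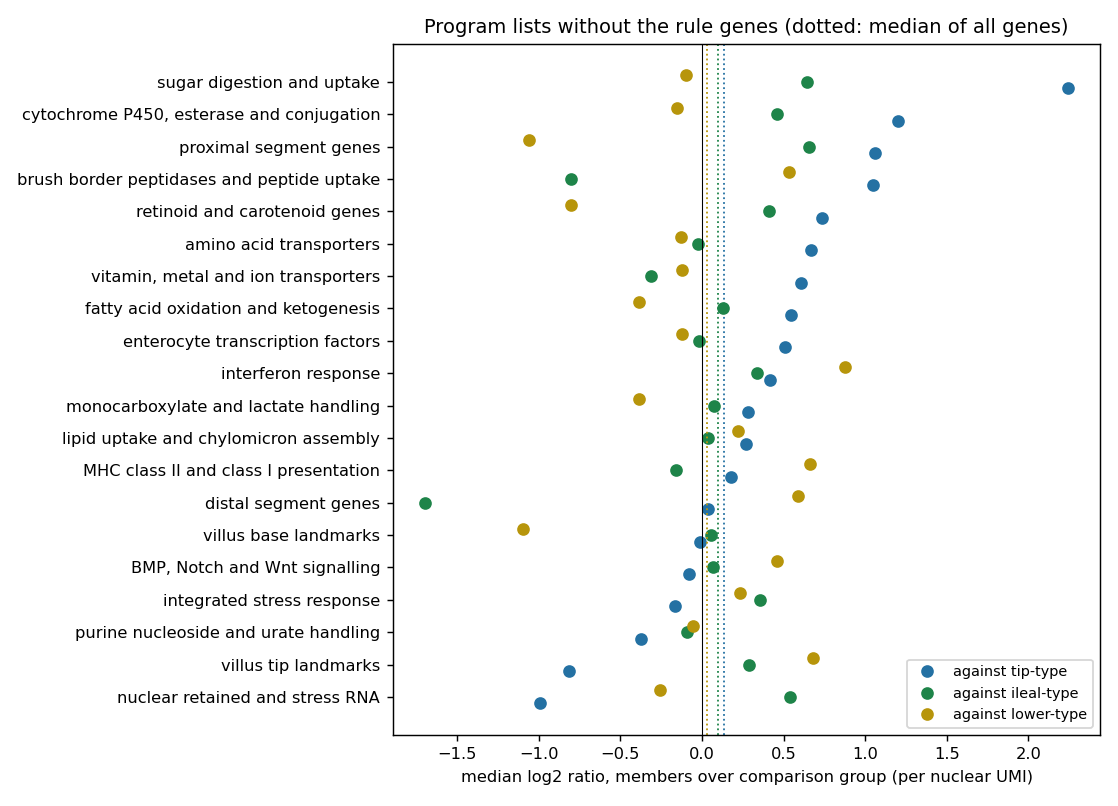
Median log2 ratio of members over tip-type (blue), ileal-type (green) and lower-type (ochre) barcodes for each gene list without the rule genes, per nuclear-encoded UMI, with dotted lines at the median of all genes tested. Sugar genes lie at 2.25 against tip-type and 0.65 against ileal-type barcodes, and distal genes at -1.70 against ileal-type barcodes.

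All 13 mtDNA-encoded mRNAs, which code for subunits of the respiratory chain and of ATP synthase, were higher in members per nuclear-encoded UMI. Log2 ratios ran from 0.64 (mt-Co1) to 1.13 (mt-Nd1) against tip-type, from 1.42 (mt-Co1) to 1.88 (mt-Nd6) against ileal-type and from 1.40 (mt-Nd1) to 2.20 (mt-Nd6) against lower-type barcodes. As a share of all UMIs they made up 18.4% in members, 12.4% in tip-type, 10.4% in ileal-type, 10.5% in lower-type, 9.44% in goblet-type and 4.02% in crypt-type barcodes. The mitochondrial rRNAs moved less, at 63.1% in members, 63.8% in tip-type, 57.4% in ileal-type and 55.4% in lower-type barcodes. The ratio of mRNA to rRNA was 0.291 in members and 0.195, 0.182 and 0.190 in the 3 other enterocyte groups. Kept barcodes were limited to under 90% mtDNA-encoded UMIs, and 455 of 776 members (58.6%) were at 80% or more, against 44.0% of tip-type, 9.68% of ileal-type and 18.2% of lower-type barcodes. How far the limit cut the groups unequally was not tested.

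Fatty acid oxidation and ketogenesis genes, encoded in the nucleus, had 7 of 23 higher and 0 lower against tip-type barcodes (median 0.55), led by Pdk4 (3.33 on 43 against 4 UMIs), which holds back pyruvate oxidation. Against ileal-type barcodes 5 of 23 were higher and 1 lower, with Pdk4 at 1.84 and Acaa2 at 1.77, and Acadvl lower at -0.96. Against lower-type barcodes 0 of 22 were higher and 3 lower, among them Acaa2 (-1.80) and Cpt2 (-1.35). Integrated stress response genes showed no common direction. Against tip-type barcodes 1 of 7 was higher (Slc3a2, 1.41) and 2 lower (Atf3 and Cebpg), against ileal-type barcodes 1 of 6 was higher (Ddit3, 1.70) and 1 lower (Cebpg, -0.73), and none was called against lower-type barcodes. Both lists are to be read beside the shares over all genes tested. These were 17.7% higher and 10.5% lower against tip-type, 10.4% and 6.86% against ileal-type and 8.06% and 8.97% against lower-type barcodes.

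Open chromatin was not used to choose the cells, so it gives a second readout of the same barcodes. Members had 5328805 fragments in peaks. Peaks within 1 kb of the start of each marker gene are given as fragments per 1000000 fragments in peaks. RefSeq promoters of 3 of the 5 markers were found on mm10 (GRCm38.p6), each running from 250 bases before the gene start to 50 after it. They are shown since each lies inside the peak whose openness is described next. In the Tmprss15 sequence, at chr16:79091048-79091347 on the minus strand, capitals mark the words TTTATGG (bound by CDX factors, bases 105 to 111) and ATTAAC (the reverse strand of the HNF1 word GTTAAT, bases 207 to 212). The Cyp3a25 sequence is chr5:146009569-146009868 on the minus strand and the Mme sequence chr3:63295845-63296144 on the plus strand, and neither held a word searched.
Tmprss15: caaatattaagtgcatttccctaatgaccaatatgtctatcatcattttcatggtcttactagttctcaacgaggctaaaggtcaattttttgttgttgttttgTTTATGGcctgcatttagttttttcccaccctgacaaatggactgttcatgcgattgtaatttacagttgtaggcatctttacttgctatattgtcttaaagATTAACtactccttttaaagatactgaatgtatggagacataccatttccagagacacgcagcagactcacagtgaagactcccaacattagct
Cyp3a25: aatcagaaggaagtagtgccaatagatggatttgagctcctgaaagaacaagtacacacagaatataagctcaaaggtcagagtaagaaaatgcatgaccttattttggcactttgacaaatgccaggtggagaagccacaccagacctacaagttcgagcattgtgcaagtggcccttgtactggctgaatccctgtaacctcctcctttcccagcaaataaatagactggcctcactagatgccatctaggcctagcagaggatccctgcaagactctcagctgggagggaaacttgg
Mme: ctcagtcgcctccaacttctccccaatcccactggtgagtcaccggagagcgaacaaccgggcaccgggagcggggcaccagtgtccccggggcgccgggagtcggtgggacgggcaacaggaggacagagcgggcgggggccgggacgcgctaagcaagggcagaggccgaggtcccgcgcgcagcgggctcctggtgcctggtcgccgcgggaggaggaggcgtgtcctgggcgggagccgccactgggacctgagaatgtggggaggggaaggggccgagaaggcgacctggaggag
The words were searched on both strands. The HNF4 factors were given CAAAGTCCA. For GATA factors the word searched was AGATAA. The CDX factors had TTTATGG and also the related word TTTATTG. The word for HNF1 was GTTAAT as above. Of 32851 RefSeq promoters of 300 bases, 2.75% hold TTTATGG and 7.10% hold GTTAAT, so both matches are descriptions of letters only.

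The Xdh promoter peak (chr17:73949865-73950734) differed by less than 1.5-fold between groups. It held 69.4 fragments in members (62.5 to 76.9), 65.2 in tip-type, 68.3 in ileal-type, 53.5 in lower-type, 53.9 in goblet-type (49.96 to 58.0) and 54.1 in crypt-type barcodes (47.5 to 61.2). Goblet-type and crypt-type intervals lay below that of members. The log2 ratio of members was 0.09 over tip-type (-0.15 to 0.33), 0.02 over ileal-type (-0.25 to 0.31) and 0.38 over lower-type barcodes (-0.21 to 1.02). Peaks inside the Xdh gene differed more. The peak 7.36 kb from its start (chr17:73941906-73942818) held 56.1 in members, 45.6, 38.3 and 38.5 in the tip-, ileal- and lower-type groups, 31.2 in goblet-type and 25.6 in crypt-type barcodes. The peak 10.88 kb from it (chr17:73938407-73939305) held 24.96 in members, 16.1, 15.9 and 12.8 in those groups, 5.30 in goblet-type and 1.75 in crypt-type barcodes. Over all 18 peaks within 50 kb the log2 ratio was 0.34 (0.21 to 0.47), 0.39 (0.23 to 0.55) and 0.58 (0.25 to 0.93).

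The other marker promoters were more open in members than in goblet-type and crypt-type barcodes. Tmprss15 (chr16:79090924-79091835) held 24.8 in members, 23.5 in lower-type, 8.58 in tip-type, 5.01 in ileal-type, 3.68 in goblet-type and 1.09 in crypt-type barcodes. Its log2 ratio was 1.53 over tip-type (0.96 to 2.13) and 2.31 over ileal-type (1.42 to 3.34) but 0.07 over lower-type barcodes (-0.81 to 1.11). Slc5a12 (chr2:110596680-110597586) held 36.2 in members, 29.1 in ileal-type, 13.7 in tip-type and 12.8 in lower-type barcodes, with log2 ratios of 0.31 (-0.10 to 0.74), 1.40 (0.95 to 1.88) and 1.496 (0.35 to 2.96). Mme, with 2 peaks at its start, held 20.1 in members, 26.0 in ileal-type, 21.4 in lower-type and 8.31 in tip-type barcodes, and differed beyond its interval from tip-type barcodes only (1.27, 0.68 to 1.90). Cyp3a25 (chr5:146009289-146010204) held 22.5 in members, 19.6 in ileal-type, 17.1 in lower-type and 9.92 in tip-type barcodes, and it too differed beyond its interval from tip-type barcodes only (1.18, 0.64 to 1.76). The tip genes of the rule showed the opposite order. The Slc28a2 promoter held 3.57 in members and 39.2 in tip-type barcodes, and that of Nt5e 3.38 and 22.3.

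**Figure D4:**
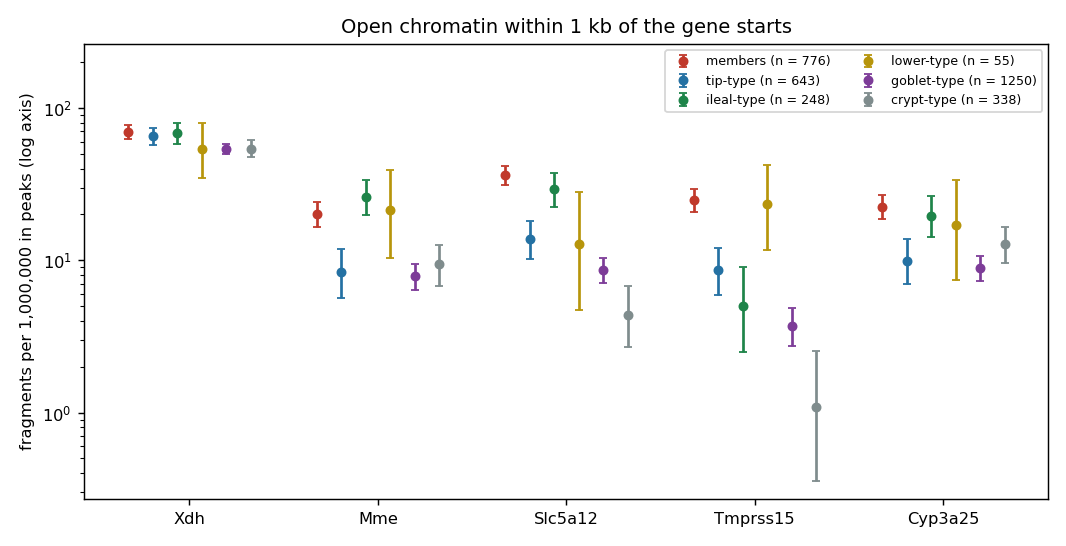
Fragments per 1000000 fragments in peaks (log axis) in peaks within 1 kb of the start of each marker gene, with 95% exact Poisson intervals. Xdh lies between 53.5 and 69.4 in all 6 groups, while Tmprss15 is at 24.8 in members and 23.5 in lower-type barcodes and at 5.01 in ileal-type barcodes.

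Across the genome 8249 of 69871 peaks tested were called higher (11.8%) and 9640 lower (13.8%) in members than in tip-type barcodes, by the 1.5-fold rule used for genes and at least 20 fragments. Against ileal-type barcodes 4071 of 62687 were higher (6.49%) and 6181 lower (9.86%), and against lower-type barcodes 1788 of 51877 higher (3.45%) and 2153 lower (4.15%). With at least 50 fragments, more peaks were higher than lower in each of these comparisons. Promoters leaned the way their RNA did. Of genes called higher in RNA against tip-type barcodes and with promoter fragments, 77.0% of 1089 had a promoter ratio above 1, against 33.8% of 627 genes called lower and 60.3% of all 7721 tested. Against ileal-type barcodes the shares were 71.3% of 519, 42.9% of 380 and 61.3% of all, and against lower-type barcodes 57.3% of 422, 40.9% of 460 and 47.9%. The median promoter log2 ratios were small, at 0.18 and -0.12 for genes called higher and lower against tip-type barcodes.

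The 5 peaks with the highest ratio against the 3 enterocyte groups together, among those with at least 50 fragments, lay mostly away from gene starts. In that comparison 5679 of 82917 peaks were called higher (6.85%) and 11090 lower (13.4%). The first was chr5:94347196-94348091, at the start of AA792892, with 71 fragments in members and 10 in the other groups (8.52-fold). The second, chr8:126087584-126088443, lay 50.55 kb from the nearest gene start, that of Slc35f3 (115 and 20 fragments, 6.90-fold). The third, chr9:24866307-24867206, lay 92 kb from Tbx20 (50 and 9, 6.66-fold). The peaks chr13:90962647-90963493, inside Atg10, and chr9:43540978-43541860, 202.12 kb from Nectin1, were both 5.997-fold higher. Exon and intron annotation was not used here.

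Tmprss15 divided the members, since 275 had at least 1 UMI of it and 501 had none. The split follows a measured gene and partly depth, with medians of 1009 and 889 nuclear-encoded UMIs, 6056 and 5570 fragments and 85.2% and 80.7% mtDNA-encoded UMIs. The chromatin at the gene, which did not set the split, differed between these members: its promoter held 45.3 fragments with Tmprss15 RNA (36.7 to 55.3) and 11.2 without (7.86 to 15.5), a log2 ratio of 2.01 (1.45 to 2.61). Members without it were close to tip-type barcodes (8.58) in this peak. The promoters of Xdh (74.0 and 66.4), Mme (19.3 and 20.6) and Slc5a12 (32.5 and 38.7) differed less than their intervals between the 2 sets.

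In RNA, 189 of 6221 genes were called higher (3.04%) and 164 lower (2.64%) in members with Tmprss15, and the genes named here were chosen after their values were seen. Onecut2 stood at 546 with and 242 without (log2 1.17, 0.84 to 1.51), Fam13a at 313 and 122, Tm4sf4 at 124 and 56.2 and the bicarbonate cotransporter Slc4a7 at 587 and 201. Onecut2 and Fam13a also had high ratios against ileal-type barcodes, and these sets of values share the members. Slc5a8 was lower with Tmprss15 (32.5 and 83.3), as were the MHC class II genes H2-Ab1 (106 and 259) and H2-Aa (82.7 and 188) and the peptidase Mep1a (53.1 and 126). Cubn, an ileal gene whose sum the rule limits, stood at 337 and 618, and Gata4, a proximal factor that was not called, at 286 and 203. Xdh (2970 and 3085) and Mme (2078 and 2099) overlapped in their intervals between the 2 sets, and Slc5a12 stood at 1603 and 2066. All are rule genes, and members without Tmprss15 had to meet the rule through them alone, so these levels describe the choice. The sum of the 4 chosen genes had a median of 10 UMIs with and 6 without Tmprss15. Goblet markers summed to 11623 with and 8865 without, and their part in these values was not tested. By share of mtDNA-encoded UMIs, Tmprss15 stood at 623 in the 195 members under 70%, 737 in the 126 members from 70 to 80% and 1178 in the 455 members above, whereas Mme stood at 2242, 1978 and 2068.

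**Figure D5:**
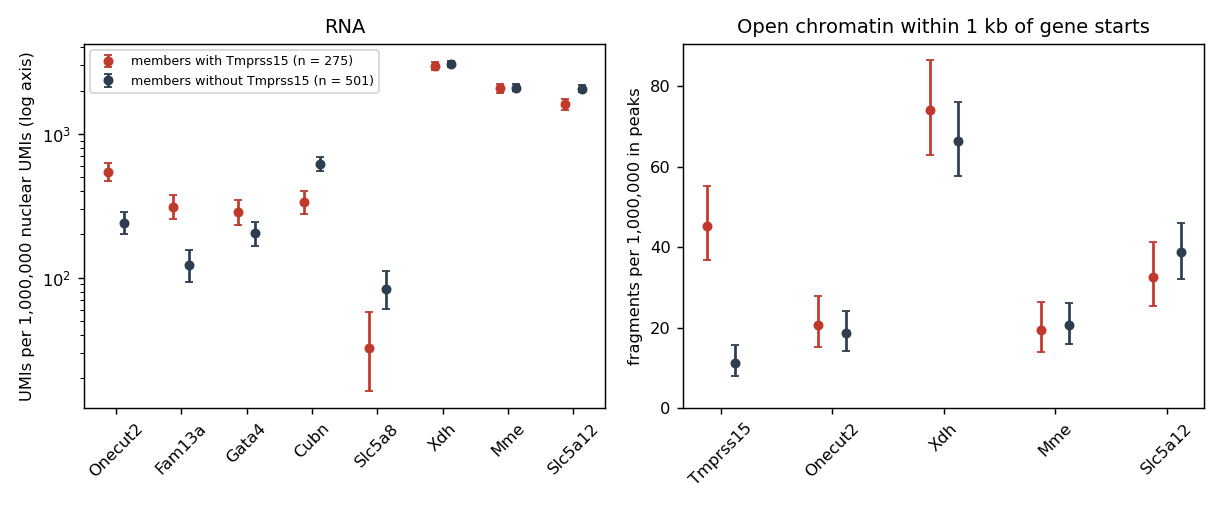
Left, UMIs per 1000000 nuclear-encoded UMIs (log axis) and right, fragments per 1000000 in peaks within 1 kb of gene starts, in members with (red, n = 275) and without (dark blue, n = 501) a Tmprss15 UMI, with 95% exact Poisson intervals. The Tmprss15 promoter is at 45.3 with and 11.2 without, while the Xdh and Mme promoters overlap.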

How the data were processed

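RNA and ATAC libraries of the same sorted cells came from 1 mouse. The deposited values are raw counts, UMIs per gene and counts per peak, made with Cell Ranger ARC per the file headers. The submitters' processing notes name Cell Ranger ARC 2.0.2 and mm10. Settings for strand and shared reads are not given in the sources used here. The matrix held 55401 genes and 146191 peaks for 12363 barcodes, and no barcode name occurred more than once. Of the peak values above 0, 87.6% were even, so each was halved and rounded up to fragments.

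Kept barcodes had 500 or more UMIs, 300 or more genes, 1000 or more peak counts and under 90% mtDNA-encoded UMIs. Of 9872 passing the first 3 filters, 8690 were kept. Scrublet (scanpy 1.11.5) marked 0 of 9872 barcodes at a threshold of 0.537, so the caller did not work and doublets remain. Goblet-type barcodes had at least 10 UMIs and 2%, and crypt-type at least 4 UMIs and 0.4%, of their marker genes.

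Ratios of summed UMIs have 95% exact conditional binomial intervals (scipy 1.17.1), and the ratio script was tested on simulated data. The genes of the rule were left out of counts of calls. Named genes were the rule and marker genes, the 8 highest and 6 lowest called genes per comparison with at least 50 UMIs, and up to 4 called members of each list with the largest ratios, or all where 5 or fewer were called. Other list members named were chosen after their values were seen. Some genes that this rule names are not reported here. The members and lists were chosen with earlier results of these data known. Alternatives were other scales, minimums, depths, doublet and mtDNA limits and member cuts. With 1 animal, no test across samples was possible.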

Additional observations from a re-analysis of the deposited data

How the results depend on the processing

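No paired analysis was possible because both libraries come from 1 animal and the groups compared share no replicate numbers. With at least 6 UMIs of the 4 genes, members made up 6.03% of kept barcodes, under 80% mtDNA-encoded UMIs 4.61% and without the limits on the other sums 11.6%. Per UMI of all kinds, the genes called higher and lower numbered 681 and 1663 against tip-type, 70 and 3308 against ileal-type and 42 and 2807 against lower-type barcodes. Thinned to 500 nuclear-encoded UMIs, with fewer genes tested, 946 genes were higher and 547 lower than in tip-type barcodes. Against ileal-type barcodes 296 were higher and 288 lower, and against lower-type barcodes 102 were higher and 184 lower. On the deposited peak counts without halving, 13165 peaks were higher and 18149 lower than in tip-type barcodes. Against ileal-type barcodes 7453 were higher and 15815 lower, and against lower-type barcodes 5616 were higher and 8177 lower. More peaks were also tested on those counts. They numbered 95845 against 69871 for tip-type, 87176 against 62687 for ileal-type and 73443 against 51877 for lower-type barcodes. The parts of narrower intervals and of added peaks in these numbers were not tested. At 50 fragments or more, 5008, 2540 and 1020 peaks were lower in the 3 comparisons. Under 80% mtDNA-encoded UMIs, with 321 members, 5796 peaks were higher and 5768 lower than in tip-type barcodes. Against ileal-type barcodes 2633 were higher and 3293 lower, and against lower-type barcodes 1442 were higher and 1173 lower. Per UMI of all kinds, Cyp3a25 changed sign to a log2 of -0.33 over ileal-type and -0.76 over lower-type barcodes, and Mme to -0.34 over lower-type barcodes. After thinning, the ratio of Cyp3a25 over lower-type barcodes also changed sign (-0.33). No other ratio that could be compared, of a marker gene or of the genes with the highest and lowest ratios, changed sign under these alternatives. Counting the main setting, 20 such ratios were left out because a group had 0 UMIs, so their sign was not followed. After thinning these included Slc23a4, Mtmr11, Tmem140, H2-Q4, Snrpd2 and Ang4 over lower-type and Gm47507 and Gprc5a over tip-type barcodes. After thinning, list medians over that of all genes, against lower-type barcodes, moved to 0.78 for amino acid transporters, -0.40 for stress response genes and -0.11 for base landmarks, and the cause was not tested. Other list medians that crossed that of all genes lay within 0.311 of it under each alternative. Per UMI of all kinds, list medians and that of all genes shift together, so the sign changes given above are not counted here. Of genes higher than in lower-type barcodes, 42 of 542 were called again per UMI of all kinds, 85 after thinning and 350 under 80% mtDNA-encoded UMIs.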

Other observations

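Interferon and antigen presentation genes differed between enterocyte groups. Over all genes tested, 17.7% were higher and 10.5% lower against tip-type, 10.4% and 6.86% against ileal-type and 8.06% and 8.97% against lower-type barcodes. Both medians given below against lower-type barcodes change sign per UMI of all kinds, where ratios move by -0.88. Interferon response genes had 7 of 15 higher and 0 lower in members than in lower-type barcodes (median log2 0.87), among them the antiviral sensors Ddx60 (2.26) and Ifih1 (1.25), Oasl2 (2.30 on 75 against 3 UMIs) and Parp14 (1.35). Against ileal-type barcodes 3 of 15 were higher and 0 lower (Ifit1, Oasl2 and Irf1), and against tip-type barcodes 6 of 16 were higher and 1, Oasl1 (-1.68), lower. MHC genes had 5 of 15 lower and 0 higher than in ileal-type barcodes, all of class II: H2-Aa (-1.87), H2-DMb1 (-1.37), H2-Ab1 (-1.22), H2-Eb1 (-1.16) and Cd74 (-1.11). Against tip-type barcodes 5 of 15 were higher, led by Ciita (3.02 on 61 against 7 UMIs), the master regulator of class II genes. Against lower-type barcodes 5 of 14 were higher and 0 lower (median 0.66): H2-Ab1 (1.25), H2-K1 (1.11), H2-D1 (0.84), Cd74 (0.79) and B2m (0.62). In members Cd79a, Ms4a1, Csf1r, Adgre1 and Lyz2, which mark B cells and myeloid cells, were at 0 UMIs. Csf1r and Lyz2 were at 0 in all kept barcodes too, and Cd79a in each other group compared, so those zeros do not set members apart.

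BMP, Notch and Wnt genes had 4 of 17 higher and 0 lower than in lower-type barcodes: the inhibitory Smads Smad7 (1.63) and Smad6 (1.20), Bmp1 (1.54) and the BMP target Id1 (1.10). Against tip-type barcodes 2 of 20 were higher and 4 lower, with Smad6 higher (1.03) and Smad7 lower (-0.80). Over all genes the shares were 8.06% higher and 8.97% lower against lower-type and 17.7% and 10.5% against tip-type barcodes.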
